A study of Homo sapiens with 8 samples.

Results

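The 10 inflammatory messenger genes followed here, in 2 human leukaemia cell lines treated with dG, were the CC chemokines CCL2, CCL3, CCL4 and CCL5, the CXC chemokines CXCL2, CXCL3 and CXCL8, the cytokine IL1B with its natural antagonist IL1RN, and the cytokine TNF. They are 10 of the 57992 genes in the deposited count table, each matched by its symbol to a single gene entry. The 4 groups were U937 cells in 10 mM dG, U937 cells in PBS, KG1A cells in 10 mM dG and KG1A cells in PBS, with 2 libraries each. The labels name the compound only as dG and PBS as its vehicle, and all groups grew in RPMI medium with dialyzed serum. No treatment time is given in the sources used here. By its title the study concerned the maturation block of acute myeloid leukaemia under disturbed deoxynucleotide pools. U937 has the character of an early monocyte, and KG1A that of an immature blood cell carrying CD34. Each is 1 established line, so a difference between them is a difference between these cultures and not between kinds of leukaemia. The labels number the libraries of a group as replicates without saying that they came from separate cultures, so p-values measure the spread between these libraries, which may be technical.

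Chemokines are small secreted proteins that draw white blood cells along a gradient by way of receptors on the cell surface. The CC chemokines measured here act mainly on monocytes, macrophages and lymphocytes, and the CXC chemokines CXCL2, CXCL3 and CXCL8 mainly on neutrophils. IL1B is made as an inactive precursor that is cut and released after an inflammasome has formed, while IL1RN occupies the same receptor without signalling. TNF is shed from the cell surface and signals through TNFRSF1A and TNFRSF1B. In monocytes several of these genes are known as rapid targets of NF-kB and AP-1 factors, and several of their mRNAs carry AU-rich stretches that shorten their life.

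Levels are given in CPM, in which reads are expressed relative to a TMM-corrected depth computed with edgeR, and in the authors' RPKM, which also divides by exon length. Library totals ran from 21053724 to 31135338 counts. Mitochondrially encoded genes took 7.93% to 8.30% of the counts in the dG libraries and 9.12% to 9.83% in the PBS libraries, and the part of this gap in the results below was not tested. The marker of KG1A, CD34, averaged 0.560 CPM in U937 dG and 0.265 CPM in U937 PBS, and 1190 CPM in KG1A dG and 931 CPM in KG1A PBS. The U937 libraries carried ELANE, CTSG, CD33 and CD4, with CTSG at 1120 CPM in dG and 499 CPM in PBS, but MPO was near 0 in every one of them. The 10 U937 markers together came to between 14.7 and 15.0 CPM in KG1A dG, against between 2.04 and 2.09 CPM in KG1A PBS, most of it ITGAM, with ELANE at 0 in all 4 KG1A libraries. In bulk RNA, fewer cells of a type and less RNA per cell cannot be told apart.

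The stretches just before the start of transcription are shown for 4 of the genes, because these carry the results on the CXC chemokines and IL1B and because CXCL2 and CXCL3 are close copies of each other, of which CXCL2 was read in both lines and CXCL3 in KG1A alone. The sequences are RefSeq's on build GRCh38.p14, 150 bases each, written 5′ to 3′ on the gene's own strand and ending at the last base before the start. Capitals mark matches to 4 motifs: GGGRNNYYCC of NF-kB (kappaB), TGANTCA of AP-1, TTNNGNAA of C/EBP factors, and TATAAA. In these letters N is any base, R is A or G, and Y is C or T. TATAAA was searched on the gene's strand only and the others on both strands. Sites that depart from these letters were not searched for.
CXCL2: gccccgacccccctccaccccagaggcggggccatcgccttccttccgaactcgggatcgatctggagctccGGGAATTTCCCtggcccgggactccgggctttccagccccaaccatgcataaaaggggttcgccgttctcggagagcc
CXCL3: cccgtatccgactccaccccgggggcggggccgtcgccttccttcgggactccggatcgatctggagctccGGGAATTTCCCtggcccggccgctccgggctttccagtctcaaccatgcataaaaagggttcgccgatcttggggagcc
CXCL8: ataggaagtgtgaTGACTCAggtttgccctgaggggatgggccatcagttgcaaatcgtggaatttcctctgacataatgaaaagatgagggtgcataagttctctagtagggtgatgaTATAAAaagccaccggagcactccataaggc
IL1B: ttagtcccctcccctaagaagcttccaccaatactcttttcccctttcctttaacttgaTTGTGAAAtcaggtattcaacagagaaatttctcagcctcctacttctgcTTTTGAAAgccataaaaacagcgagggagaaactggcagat

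These windows lie at chr4:74099196-74099345 on the minus strand for CXCL2, chr4:74038690-74038839 on the minus strand for CXCL3, chr4:73740419-73740568 on the plus strand for CXCL8 and chr2:112836780-112836929 on the minus strand for IL1B. RefSeq's promoter table held 7 of the 10 genes, and 6 of these (CCL3, CXCL2, CXCL3, CXCL8, IL1B and TNF) had a start within 1000 bases of the gene start in the count table. Over 250 bases before the start, the kappaB motif was found in 2 of the 6, CXCL2 and CXCL3, and in 9.96% of the 35116 promoters in the table. TGANTCA was found in 1 of the 6, CXCL8, against 6.57% of all promoters. TTNNGNAA stood in 4 of the 6, against 33.2%, and TATAAA in CCL3, CXCL8 and TNF, against 6.8%. The CXCL2 and CXCL3 windows, laid side by side with a shift of 1 base and no gaps, were equal at 98 of 150 bases (65.3%). The longest unbroken shared run of 37 bases spans the kappaB match in both. That match begins 78 bases before the start in CXCL2 and 79 in CXCL3, so the bases nearest the start were compared out of register. An alignment with gaps was not made. A match describes letters and not a bound site.

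In U937, all 8 of the genes that could be tested rose with dG: CCL2, CCL3, CCL5, CXCL2, CXCL8, IL1B, IL1RN and TNF. Over all 18314 genes tested in U937, 64% were called changed and 32.4% were called higher. In KG1A, 3 of the 7 genes tested rose, CCL5, CXCL2 and IL1B. None of the 7 was called lower by edgeR's quasi-likelihood test as used here or by DESeq2. CXCL3 was lower at an unadjusted edgeR p of 0.0421, and 8 of 18 alternative fits called it lower. Over all 18314 genes tested in KG1A, 49.1% were called changed, with 29.6% of all genes higher and 19.6% lower. The median log2 fold change of the tested genes was 1.88 in U937, against -0.02 over the 17246 genes with reads above the floor in that line, and 0.39 in KG1A, against 0.06 over 17065 genes. The test was edgeR's quasi-likelihood test on the counts of all 8 libraries, with Benjamini-Hochberg adjustment over every gene tested and a threshold of 0.05. Standard errors follow log2 fold changes after ±, and a fold change is dG over PBS unless another is named.

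Large steps were less common than calls. Among all genes, 9.71% passed the threshold in U937 with a rise of at least 1 on the log2 scale, and 3.26% with a rise of at least 2. Falls are not counted in these shares. CCL2, CCL3, CXCL2, CXCL8, IL1B and IL1RN were past 1 in U937, and CCL3, CXCL2, CXCL8 and IL1B also past 2. In KG1A those shares were 5.64% and 1.61%. CCL5 passed 2 there, and IL1B passed 1. Each of the 8 genes had at least 19 counts in both U937 PBS libraries, so none entered the test only by its level in dG. In U937 all 8 had both dG libraries above both PBS libraries, where 78.9% of all genes had groups without overlap, 39.2% with dG higher and 39.8% with dG lower. In KG1A 5 of the 7 had dG wholly above PBS and 1, CXCL3, wholly below, where 70.2% of all genes had no overlap, 40.6% with dG higher and 29.6% with dG lower.

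**Figure D1:**
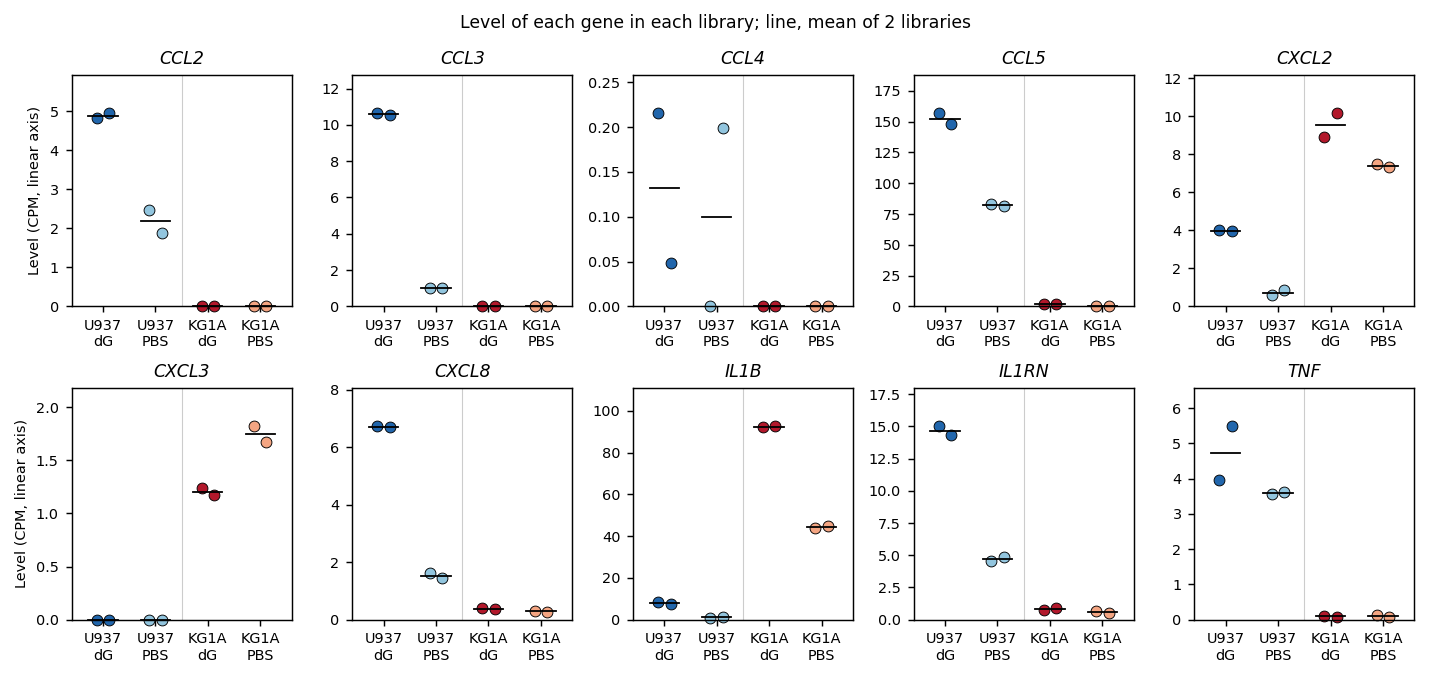
Level of each of the 10 genes in CPM on linear axes that differ between panels, with 1 point per library and a line at the mean of 2 libraries; U937 stands left of KG1A and dG left of PBS. CCL2, CCL3 and CCL4 lie at 0 in every KG1A library, CXCL3 lies at 0 in every U937 library, and 8 genes have both U937 dG points above both U937 PBS points.

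Among the CC chemokines, CCL2, which recruits monocytes through the receptor CCR2, was read only in U937. It stood at 4.83 and 4.94 CPM in U937 dG, against 2.48 and 1.87 CPM in U937 PBS, on 112 and 102 counts in dG and 79 and 47 counts in PBS. The PBS libraries lay further apart than the dG libraries, and the groups did not overlap. The log2 fold change was 1.14 ± 0.18 (95% interval 0.78 to 1.51), with an adjusted p of 8.72e-07 by edgeR's quasi-likelihood test. The gene spans chr17:34255218-34257203 in the files' annotation on hg38, and its neighbours CCL7, CCL11, CCL8, CCL13 and CCL1 were near 0 everywhere: CCL7 had 6 counts over the U937 dG libraries and 1 over the U937 PBS libraries, and the others had none in any library.

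CCL3, a ligand of CCR1 also known as macrophage inflammatory protein 1-alpha, had the largest fold change of the 10 genes in U937. Its level was 10.6 and 10.5 CPM in U937 dG, against 1.00 and 0.996 CPM in U937 PBS. Replicates nearly coincided in each group, and the groups lay far apart. The log2 fold change was 3.40 ± 0.17 (95% interval 3.05 to 3.75), a 10.5-fold rise with an adjusted p of 1.18e-18 by edgeR's quasi-likelihood test. The near copy CCL3L3, which lies in the same cluster on chromosome 17, was higher by 2.94 ± 0.33 in U937 dG, but with 17 counts over the PBS libraries it entered the test only by its level in dG. Of the 50-base windows of CCL3 transcripts 4.93% also occur in CCL3L3, and how reads matching both genes were assigned is not given in the sources used here. An antisense gene, AC243829.4, shares 1115 exon bases with CCL3 but held only 30 counts over all 8 libraries.

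CCL4, or macrophage inflammatory protein 1-beta, lies next to CCL3 at chr17:36103590-36105621 and was hardly read. The U937 dG libraries held 5 and 1 counts, and the U937 PBS libraries 0 and 5. The groups overlapped, and the summed counts of 6 in dG and 5 in PBS have exact Poisson 95% intervals of 2.20 to 13.1 and 1.62 to 11.7, which cover counting error only. CCL4 failed the filter on low counts. With no filter its log2 fold change was 0.66 ± 1.14 (adjusted p = 0.766 by edgeR's quasi-likelihood test), so a difference was not detectable at this depth. Its near copy CCL4L2, which shares 10.1% of the 50-base windows of CCL4, had 9 counts in U937 dG and 1 in U937 PBS.

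CCL5, also known as RANTES and made by T cells and macrophages, was by far the most abundant of the 10 genes in U937. It reached 157 and 148 CPM in U937 dG, against 83.3 and 81.5 CPM in U937 PBS. The groups were well apart, and the log2 fold change of 0.89 ± 0.04 had an adjusted p of 1.27e-19 by edgeR's quasi-likelihood test. In KG1A the gene was scarce, at 1.95 and 2.26 CPM in KG1A dG, against 0.476 and 0.547 CPM in KG1A PBS, on 111 counts over the dG libraries and 27 over the PBS libraries. No KG1A dG value came near a KG1A PBS value. The log2 fold change there was 2.01 ± 0.26 (95% interval 1.48 to 2.54, adjusted p = 3.50e-08 by edgeR's quasi-likelihood test), the largest among these genes in KG1A.

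Because CCL5 is so much higher in U937, its KG1A level was set beside that of genes specific to U937. The 58 genes with at least 100 CPM on average in U937 and under 0.5 CPM in KG1A summed to between 0.0577% and 0.0596% of their mean U937 level in the KG1A dG libraries, and to between 0.0357% and 0.0427% in the KG1A PBS libraries. CCL5 in KG1A stood at 1.38% of its U937 level in dG and at 0.621% in PBS. The shares of the 58 genes are low by the way they were chosen and set no bound for CCL5, and the part of reads carried over between lines was not tested. CCL2 and CCL3, also present in U937, had no count in any KG1A library. The 90 genes specific to KG1A in the same sense came to between 0.0458% and 0.0657% in the U937 dG libraries and between 0.0261% and 0.0271% in the U937 PBS libraries.

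Among the CXC chemokines, CXCL2 was the one read well in both lines. This neutrophil attractant, a ligand of CXCR2, stood at 4.01 and 3.98 CPM in U937 dG, against 0.596 and 0.837 CPM in U937 PBS. The U937 groups did not overlap, and the log2 fold change was 2.50 ± 0.22 (95% interval 2.04 to 2.96), with an adjusted p of 3.08e-12 by edgeR's quasi-likelihood test. KG1A started higher: it had 8.92 and 10.2 CPM in KG1A dG, against 7.49 and 7.32 CPM in KG1A PBS. Here too the groups did not overlap, and the step between the group means was larger than the distance between the dG libraries, with a log2 fold change of 0.36 ± 0.11 and an adjusted p of 0.00646 by edgeR's quasi-likelihood test. That call was lost in 5 of 18 alternative fits, over which the adjusted p ran from 0.00367 to 0.124. It was lost without KG1A dG replicate 2 (log2 0.27, adjusted p = 0.107 by edgeR), without KG1A PBS replicate 2 (0.34, adjusted p = 0.0537 by edgeR) and under DESeq2's Wald test (0.35, adjusted p = 0.122).

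CXCL3, the neighbour of CXCL2 and like it a ligand of CXCR2, showed the opposite line pattern to the CC chemokines. It had no count in any of the 4 U937 libraries. In KG1A it stood at 1.24 and 1.17 CPM in dG, on 35 and 29 counts, against 1.82 and 1.67 CPM in PBS, on 42 and 49 counts. The dG values lay below the PBS values without overlap, and the log2 fold change was -0.52 ± 0.25 (95% interval -1.03 to -0.02), with an adjusted p of 0.0804 by edgeR's quasi-likelihood test. The adjusted p ran from 0.00114 to 0.427 over 18 alternative fits, 8 of which passed the threshold with the same sign. Among the 8 were the fits without U937 dG replicate 1 or without U937 dG replicate 2 (-0.59 in each, adjusted p = 0.0499 by edgeR), although these libraries hold no CXCL3 read. CXCL2 shares 8.99% of its 50-base windows with CXCL3, and the third close copy, CXCL1, had 1 count over the KG1A dG libraries, 1 over the KG1A PBS libraries and none in U937.

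CXCL8, or interleukin 8, which acts through CXCR1 and CXCR2, stood at 6.72 and 6.69 CPM in U937 dG, against 1.63 and 1.43 CPM in U937 PBS. The groups were clearly separate in U937, with a log2 fold change of 2.12 ± 0.17 (95% interval 1.77 to 2.46, adjusted p = 1.22e-13 by edgeR's quasi-likelihood test). In KG1A the gene had 11 and 9 counts in dG and 7 and 8 counts in PBS. These amount to 0.391 and 0.363 CPM in KG1A dG and 0.303 and 0.273 CPM in KG1A PBS. The KG1A values did not overlap, but the log2 fold change of 0.39 ± 0.47 had an adjusted p of 0.539 by edgeR's quasi-likelihood test, and its interval of -0.56 to 1.35 runs from a fall to a rise of over 2-fold.

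IL1B, the main secreted form of interleukin 1 in monocytes, rose in both lines. U937 had 8.44 and 7.42 CPM in dG, against 1.00 and 1.23 CPM in PBS, and the groups lay far apart. The log2 fold change in U937 was 2.84 ± 0.16 (95% interval 2.52 to 3.17), a 7.17-fold rise with an adjusted p of 7.51e-18 by edgeR's quasi-likelihood test. KG1A was the richer line, with 92.2 and 92.5 CPM in KG1A dG, against 43.8 and 44.9 CPM in KG1A PBS. Each KG1A group was tight and the gap between them wide, with a log2 fold change of 1.06 ± 0.05 (95% interval 0.95 to 1.16, adjusted p = 2.86e-19 by edgeR's quasi-likelihood test). IL1B in U937 stood at 8.58% of its KG1A level in dG and 2.52% in PBS. The gene lies at chr2:112829751-112836903 on the minus strand.

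IL1RN, which encodes the receptor antagonist, is at chr2:113107214-113134016 in the same cluster and had the reverse line pattern. It stood at 15.0 and 14.3 CPM in U937 dG, against 4.58 and 4.86 CPM in U937 PBS, and the groups did not overlap. The log2 fold change was 1.64 ± 0.11 (95% interval 1.41 to 1.87, adjusted p = 2.03e-15 by edgeR's quasi-likelihood test). In KG1A it was at 0.746 and 0.928 CPM in dG, against 0.693 and 0.513 CPM in PBS, on 44 counts over the dG libraries and 31 over the PBS libraries. The closest values of the 2 KG1A groups nearly met, and the log2 fold change of 0.49 ± 0.33 did not pass (95% interval -0.18 to 1.15, adjusted p = 0.237 by edgeR's quasi-likelihood test).

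Agonist and antagonist were set against each other per library by the ratio of their RPKM, which corrects for the similar exon lengths of 3096 bases for IL1B and 3256 bases for IL1RN. The ratio was 0.592 and 0.544 in U937 dG, against 0.231 and 0.267 in U937 PBS. In KG1A it was 130 and 105 in dG, against 66.5 and 92.1 in PBS. IL1RN mRNA exceeded IL1B mRNA in every U937 library and IL1B exceeded IL1RN in every KG1A library. Within each line both dG ratios lay above both PBS ratios, and in KG1A the ratio rests on 15 to 23 IL1RN counts per library.

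**Figure D2:**
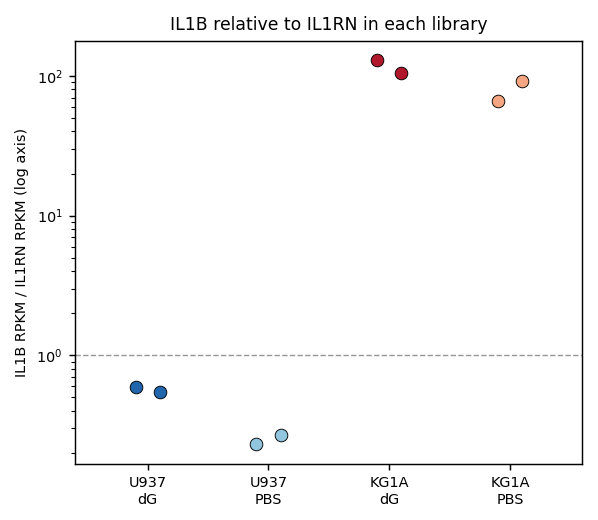
IL1B RPKM divided by IL1RN RPKM in each library, on a log axis, with 1 point per library, U937 left of KG1A and dG left of PBS; the dashed line marks equal RPKM. All 4 U937 libraries lie below the line, between 0.231 and 0.592, and all 4 KG1A libraries above it, between 66.5 and 130.

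The other genes of the interleukin 1 cluster on chromosome 2 were scarce. IL1A, the second agonist, had 41 counts over the U937 dG libraries and 5 over the U937 PBS libraries, and 1 count over the KG1A dG libraries and none over the KG1A PBS libraries. IL36A had 45 counts in KG1A dG and 20 in KG1A PBS. IL36B, IL36RN and IL1F10 had no count in any library.

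TNF, the founding member of its cytokine family, was the least moved of the genes called in U937. It had 3.96 and 5.48 CPM in U937 dG, against 3.57 and 3.63 CPM in U937 PBS. The dG libraries lay further from each other than the lower of them lay from PBS, though the groups did not overlap. The log2 fold change was 0.38 ± 0.16 (95% interval 0.05 to 0.71), with an adjusted p of 0.0408 by edgeR's quasi-likelihood test. This call was lost in 7 of 18 alternative fits, with adjusted p between 0.00273 and 0.406. It was lost without U937 dG replicate 2 (log2 0.20, adjusted p = 0.406 by edgeR), without U937 PBS replicate 1 (0.37, adjusted p = 0.133) and without U937 PBS replicate 2 (0.38, adjusted p = 0.101). Scaling by library size alone (0.31, adjusted p = 0.103 by edgeR) and DESeq2's Wald test (0.48, adjusted p = 0.164) also lost it.

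In KG1A, TNF was at the edge of detection, with 3 and 2 counts in dG and 3 and 2 counts in PBS. Its log2 fold change of -0.02 ± 0.90 spans -1.83 to 1.80 at 95%, and the adjusted p was 1 by edgeR's quasi-likelihood test. No difference was detectable at this depth. The KG1A level was 1.98% of the U937 level in dG and 2.75% in PBS.

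**Figure D3:**
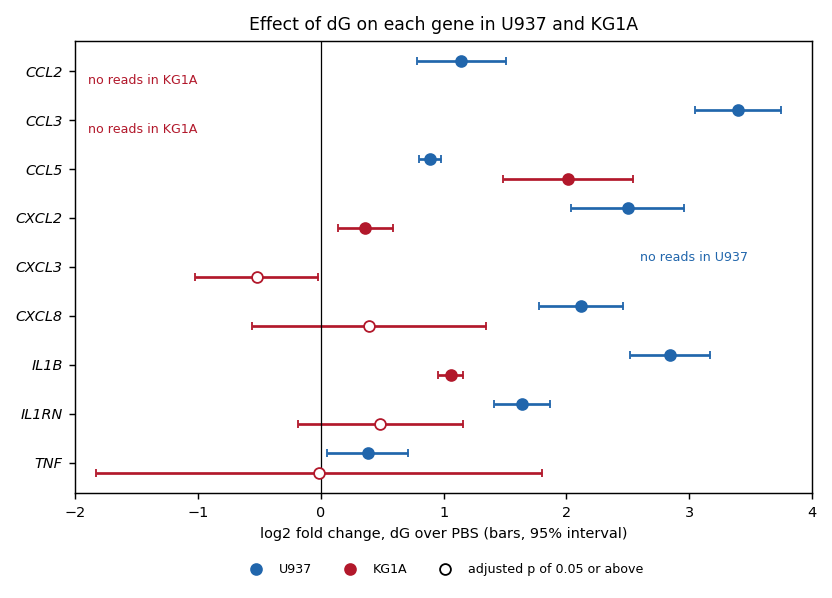
Log2 fold change of dG over PBS for the 9 genes tested in at least 1 line, with 95% intervals from edgeR's quasi-likelihood fit; blue is U937 and red is KG1A, and an open circle marks an adjusted p of 0.05 or above. The U937 point lies above 2 for CCL3, CXCL2, CXCL8 and IL1B, and CCL5 is the one gene whose KG1A point lies to the right of its U937 point.

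Whether the dG effect differed between the lines was tested as the U937 effect minus the KG1A effect for the 6 genes with reads in both lines. Of these, 4 had a larger effect in U937, 1 had a smaller effect in U937 and 1 did not differ past the threshold, where 44.1% of all genes were called, 17.6% upward and 26.4% downward. The difference in log2 fold change was 2.14 ± 0.26 for CXCL2 (adjusted p = 8.82e-09 by edgeR's quasi-likelihood test) and 1.78 ± 0.18 for IL1B (adjusted p = 1.13e-10). For CXCL8 it was 1.72 ± 0.53 (adjusted p = 0.00765 by edgeR) and for IL1RN 1.16 ± 0.36 (adjusted p = 0.00886). The IL1RN difference was lost without KG1A PBS replicate 1 (0.95, adjusted p = 0.107 by edgeR), the highest of the adjusted p over 17 alternatives, which began at 4.73e-05.

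CCL5 went the other way, with a difference of -1.13 ± 0.28 (adjusted p = 0.000878 by edgeR's quasi-likelihood test). On log2(RPKM + 1), a scale that compresses the low KG1A values, the difference was 0.13, of opposite sign and not past the threshold (adjusted p = 0.215 by limma). Over 17 alternatives the adjusted p for CCL5 ran from 0.000746 to 0.335, and 15 passed. The TNF difference of 0.40 ± 0.95 was not called (adjusted p = 0.811 by edgeR), and its interval from -1.54 to 2.33 shows how little the 10 KG1A counts can bound it.

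In PBS alone the lines differed in every gene that could be tested. Of 9 genes tested in U937 PBS against KG1A PBS, 6 were higher and 3 lower in U937, where 82.3% of all genes were called, 41.4% higher and 40.8% lower. CCL5 was higher in U937 PBS by 7.31 ± 0.11 on the log2 scale, TNF by 5.17 ± 0.37, IL1RN by 2.98 ± 0.22 and CXCL8 by 2.41 ± 0.33. CXCL2 differed by -3.39 ± 0.19 and IL1B by -5.32 ± 0.11, both lower in U937. All 4 of these positive and both negative differences kept their sign and call by edgeR, DESeq2 or limma in each of the 17 alternatives.

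For genes without a read in 1 line, only a bound can be given, taken against 3 counts over the group at 0. CCL3 was at least 187-fold higher in U937 dG than in KG1A dG, and at least 17.4-fold higher in U937 PBS than in KG1A PBS. For CCL2 the bounds were 86.2-fold in dG and 37.9-fold in PBS, again higher in U937. CXCL3 was lower in U937, at least 17.6-fold in dG and at least 33.2-fold in PBS.

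Ranked by RPKM within a group, the genes stood in a different order in each line. In U937 dG, CCL5 led at 104 ± 5.28 RPKM (SD, n = 2), followed by CCL3 at 7.28 ± 0.13 and IL1RN at 4.63 ± 0.19. Below them CXCL8, TNF, CXCL2, IL1B and CCL2 followed each other between 3.03 and 2.53 RPKM, and neighbours in that run overlapped in their libraries. In U937 PBS, CCL5 led at 53.7 ± 1.33 RPKM, with TNF at 2.12, IL1RN at 1.43 and CCL2 at 1.08 after it, and CXCL8 and CCL3 overlapped at 0.664 and 0.659. TNF was thus the second gene in U937 PBS and the fifth in U937 dG.

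KG1A had IL1B on top in both treatments, at 28.96 RPKM in dG and 14.57 RPKM in PBS. CXCL2 came next with 6.17 ± 0.56 RPKM in KG1A dG and 5.02 ± 0.07 in KG1A PBS (SD, n = 2). CCL5 and CXCL3 changed places: CCL5 stood at 1.35 RPKM and CXCL3 at 0.528 in dG, against 0.344 for CCL5 and 0.801 for CXCL3 in PBS. IL1RN, CXCL8 and TNF filled the last places in both, all under 0.3 RPKM.

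Most of the remaining chemokine ligands had few reads or none. Of 39 other ligand genes in the table, 18 had no read in U937 and 9 had enough to be tested there. These 9 were called higher in dG, at a median log2 fold change of 3.19, but several, such as CXCL14, CCL18 and CCL23, had almost no reads in PBS and entered the test only by their level in dG, so they could not have been called lower. CXCL14 stood at 2.54 and 2.13 CPM in U937 dG and 0.0941 and 0.0398 CPM in U937 PBS. CXCL10, an interferon-induced attractant of T cells, rose by 3.19 ± 0.25. In KG1A 1 of 5 such genes was higher and none lower, at a median of 0.49: CCL28, a chemokine of mucosal tissues, rose by 0.49 ± 0.08, while CXCL10 (0.65 ± 0.50) and XCL2 (0.00 ± 0.24) did not pass.

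Receptors for the chemokines were read in both lines, and none was called lower in either. In U937, 6 of 14 were higher, with a median of 0.29, and in KG1A 8 of 11, with a median of 0.92. The U937 count includes CXCR1, which entered the test only by its level in U937 dG. Over all genes with reads above the floor, 34.4% were higher and 33.5% lower in U937, and 31.7% higher and 21% lower in KG1A. CCR1, a receptor of CCL3 and CCL5, rose by 2.21 ± 0.06 in U937 and by 0.97 ± 0.08 in KG1A. The atypical receptor gene CCRL2 rose by 2.01 ± 0.12 in U937, and CXCR4, the receptor of CXCL12, by 1.03 ± 0.03 to 1282 CPM, against 626 CPM in U937 PBS. In KG1A, CCR2, the receptor of CCL2, rose by 1.96 ± 0.12, to 13.6 CPM in KG1A dG, against 3.47 CPM in KG1A PBS.

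Around IL1B, the list of interleukin 1 family ligands, receptors and adaptors split in both directions. In U937 9 of 18 were higher and 4 lower (median 0.18), and in KG1A 9 of 18 were higher and 3 lower (median 0.20). Some of the higher genes, among them IL1A and IL1R2 in U937, entered the test only by their level in dG. The receptor gene IL1R1 rose by 1.30 ± 0.28 in U937, where its dG libraries differed from each other at 1.59 and 3.34 CPM and the call was lost on log2(RPKM + 1) without a filter (adjusted p = 0.116 by limma), and by 1.29 ± 0.12 in KG1A. The kinase gene IRAK2 rose by 1.37 ± 0.07 in U937 and 0.82 ± 0.18 in KG1A, and SIGIRR, a damper of the pathway, rose by 0.68 ± 0.08 in KG1A. MYD88, the adaptor shared with Toll-like receptors, fell by 0.64 in U937 (-0.64 ± 0.05).

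Genes of inflammasomes and of IL1B release were mostly higher. In U937 11 of 14 were higher and 1 lower (median 0.45), and in KG1A 8 of 10 were higher and none lower (median 0.73). P2RX7, the ATP-gated channel that triggers IL1B release, rose by 2.06 ± 0.05 in U937 and 1.06 ± 0.07 in KG1A. The sensor genes MEFV and NLRP1 rose by 2.52 ± 0.15 and 2.18 ± 0.10 in U937. In KG1A the sensor gene NLRP3 rose by 0.99 ± 0.09 and CARD8 by 1.00 ± 0.03. Other genes of this list were absent or nearly so in KG1A and lie outside the 10 counted there. PYCARD averaged 0 CPM in KG1A dG and 0.0217 CPM in KG1A PBS, and MEFV 0.0178 CPM in dG and 0 CPM in PBS. AIM2 and NLRC4 had no read in KG1A.

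**Figure D4:**
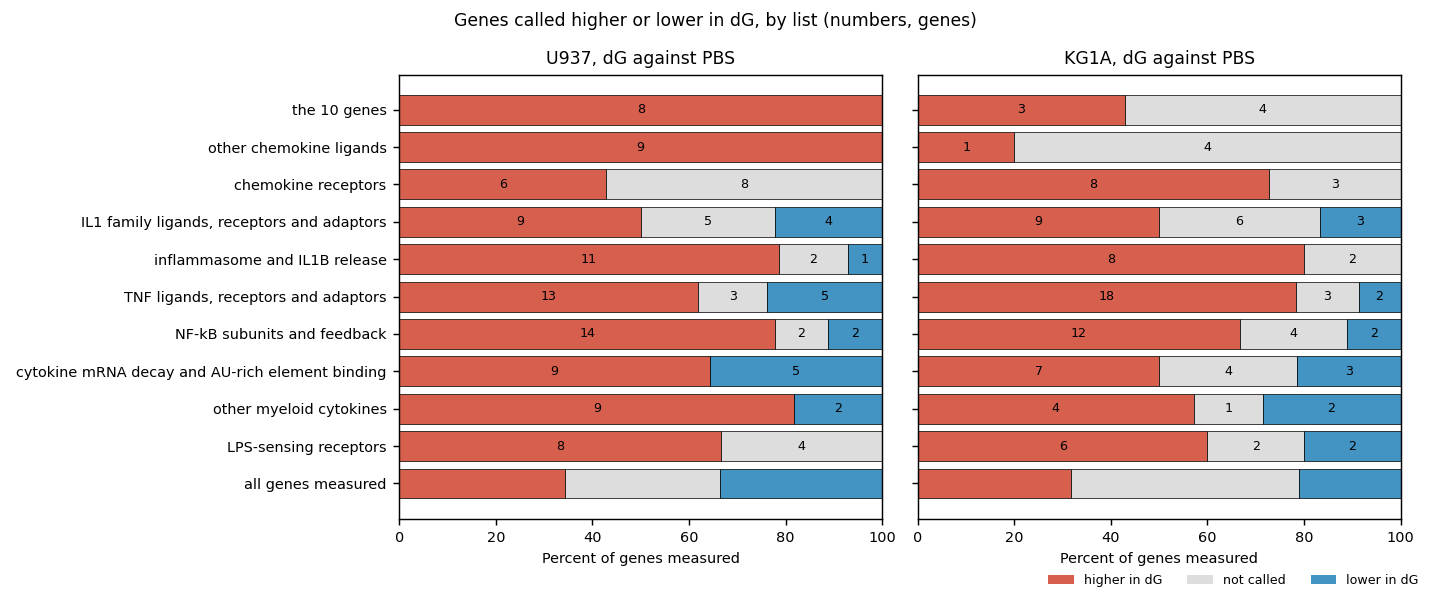
Percent of the measured genes of each list that were called higher (red), not called (grey) or called lower (blue) in dG against PBS, with U937 on the left and KG1A on the right and the number of genes printed in each segment. In U937 all 8 of the followed genes are red, and in KG1A the receptors (8 of 11) and the TNF list (18 of 23) have larger red shares than the followed genes (3 of 7).

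The list around TNF, of ligands, receptors and adaptors, had 13 higher and 5 lower of 21 in U937 (median 0.28), and 18 higher and 2 lower of 23 in KG1A (median 0.37). TNFRSF1B, the TNF receptor of immune cells, rose by 1.81 ± 0.10 in KG1A to 19.0 CPM, against 5.41 CPM in KG1A PBS. TRAF1, a signalling adaptor, rose by 1.30 ± 0.16 in U937 and 1.76 ± 0.12 in KG1A, and BIRC3, an inhibitor of cell death, by 1.11 ± 0.07 in U937 and 1.34 ± 0.04 in KG1A. The death ligand gene TNFSF10 rose by 1.02 ± 0.11 in U937.

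Among NF-kB subunits and their feedback inhibitors, 14 of 18 were higher and 2 lower in U937 (median 0.43), and 12 of 18 higher and 2 lower in KG1A (median 0.27). TNFAIP3, which ends NF-kB signalling, rose by 1.58 ± 0.04 in U937 and 1.62 ± 0.05 in KG1A. NFKBIA, the inhibitor that holds NF-kB in the cytoplasm, rose in U937 by 1.37 ± 0.06, and the co-regulator gene BCL3 rose by 1.91 ± 0.12 in U937 and 0.79 ± 0.07 in KG1A. NFKB2 rose by 1.26 ± 0.07 in KG1A.

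Genes whose products bind AU-rich mRNA or degrade cytokine mRNA were called in both directions. In U937 9 of 14 were higher and 5 lower (median 0.41), and in KG1A 7 of 14 were higher and 3 lower (median 0.08). ZC3H12C, of the Regnase family, rose by 2.43 ± 0.08 in U937 and 0.36 ± 0.04 in KG1A, and ZFP36L1, which recruits deadenylases, by 1.94 ± 0.05 in U937 and 0.56 ± 0.04 in KG1A. ZFP36, or tristetraprolin, known to destabilize TNF mRNA, rose by 1.11 ± 0.08 in U937, and TIA1, a translational repressor of TNF mRNA, rose by 0.42 ± 0.04 in KG1A.

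Other cytokines of myeloid cells were higher in 9 and lower in 2 of 11 in U937 (median 1.19), and higher in 4 and lower in 2 of 7 in KG1A (median 0.43). IL10, the anti-inflammatory cytokine, was at 2.93 and 2.96 CPM in U937 dG, against 0.0314 and 0.159 CPM in U937 PBS, and rose by 4.99 ± 0.41. GDF15 rose by 3.80 ± 0.33 in U937. Both were so scarce in PBS that they entered the test only by their level in dG. The same holds for EBI3, at 0.689 and 0.533 CPM in U937 dG, against 0.125 and 0.0398 CPM in U937 PBS. The count of higher genes in this list includes IL10, GDF15 and EBI3. VEGFA, the vascular growth factor, rose by 1.98 ± 0.03 in U937 to 676 CPM, against 172 CPM in U937 PBS, and by 1.11 ± 0.07 in KG1A. In KG1A, IL16, a ligand of CD4, rose by 1.25 ± 0.04 and HBEGF by 0.53 ± 0.11.

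Receptors for bacterial products turn these cytokine genes on in monocytes. They were counted in a list that also held the adaptor genes TICAM1 and TIRAP, and CLEC7A and TREM1. Of this list 8 were higher and none lower of 12 in U937 (median 0.59). In KG1A 6 were higher and 2 lower of 10 (median 0.49). TREM1, an amplifier of inflammatory signals, rose by 2.54 ± 0.07 in U937, and LY96, the partner of TLR4, by 5.09 ± 0.36, from few reads: its PBS libraries held 0.220 CPM and 0 CPM. TLR2 rose by 0.63 ± 0.09 in U937. TLR4 itself was not called in U937 (-0.08 ± 0.06, adjusted p = 0.218 by edgeR), and in KG1A it averaged 0 CPM in dG and 0.0171 CPM in PBS. CD14 was called lower in KG1A (-1.69 ± 0.52, adjusted p = 0.00659 by edgeR), at 0.152 CPM in dG against 0.508 CPM in PBS. In U937 CD14 averaged 0.0458 CPM in dG and 0.0513 CPM in PBS, so it entered the test only by its level in KG1A PBS. In KG1A LY96 rose by 1.26 ± 0.12 (adjusted p = 6.90e-11 by edgeR, past the threshold in 17 of 18 alternatives and lost by limma on RPKM with a pseudocount of 0.1, adjusted p = 0.172), TLR5 by 0.89 ± 0.21 and TLR1 by 0.71 ± 0.08.

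Some markers listed for other cell types were read in both lines. Of the T, B and NK cell markers, none of 3 measured was higher and 2 were lower in U937, and 2 of 4 were higher and none lower in KG1A. Their summed level was 8.77 to 10.7 CPM in U937 dG, against 15.8 to 16.0 CPM in U937 PBS, and 162 to 163 CPM in KG1A dG, against 118 to 119 CPM in KG1A PBS, led by CD3D. CCL5, a known product of T cells, rose in KG1A, as did CD3E (0.99 ± 0.09) and NCAM1 (1.65 ± 0.08). CD3D, the most abundant of these markers in KG1A, was not called there (0.10 ± 0.04, adjusted p = 0.0600 by edgeR's quasi-likelihood test). CD3G and CD8A averaged only 0.248 and 0.263 CPM in KG1A dG, and MS4A1 was at 0 in every library. Fibroblast, endothelial and epithelial markers were higher in 3 of 3 measured in U937 and higher in 2 and lower in 1 of 3 in KG1A, with PECAM1 the highest in CPM in both lines, and EPCAM, KRT5 and CDH5 at 0 in all libraries. The part of these markers in the results was not tested.

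For 3 of the genes, the 3 genes most like them across all 8 libraries were found by the root mean square distance of log2 CPM around each gene's own mean, among 12813 candidates. CXCL8 was nearest to ENTPD1 (distance 0.12), NPC1 (0.17) and PPP1R15A (0.18). IL1B was nearest to RGS3 (0.24), TMEM71 (0.27) and SH2D3C (0.32). TMEM71, for example, averaged 9.58 CPM in U937 dG, 1.10 in U937 PBS, 145 in KG1A dG and 59.1 in KG1A PBS. TNF was nearest to P2RY13 (0.25), MUC3A (0.26) and HECW1 (0.27), all 3 at 0 in KG1A, so that for TNF the likeness is little more than presence in U937 and near absence from KG1A.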

How the data were processed

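RNA libraries were made with an mRNA kit from column-purified total RNA, per the labels' protocols. The authors deposited whole-number read counts per gene and a table of RPKM values, in which counts were divided by exon length and a scaled library size. Build hg38 and the tools HTSeq 0.11.2, TopHat2 and bcl2fastq 2.18.0.12 stand in the submitters' processing notes without settings, and strand and multiple-match handling are not given in the sources used here, so near copies and antisense genes stay uncertain.

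Counts were tested with edgeR 4.0.16 (R 4.3.3): filterByExpr kept 18314 of 57992 genes, TMM scaled the libraries, and 1 model held a mean per line and treatment over all 8 libraries, with 4 residual degrees of freedom, a common biological coefficient of variation of 2.51% and 31.0 prior degrees of freedom. The two-sided quasi-likelihood F test gave p-values, adjusted by Benjamini-Hochberg over all genes tested. CPM are edgeR's. The RPKM deposited by the authors were used for levels between genes and, with limma 3.58.1 on log2(RPKM + 1) or log2(RPKM + 0.1), as alternatives. DESeq2 1.42.0, other size factors, no filter, a fit per line, a replicate block and leaving out each library were the others. A list was counted over its genes with reads above 3 counts in at least 1 group of the line. Tests were checked on simulated data. Replicates of a group differed by more than counting noise, with 1.72 to 2.09 units of chi-square per gene, so no library was counted as a repeat of another. At 95%, counting intervals, and the floor of 3 counts per group, cover counting error only, since reads carry no molecular identifiers. One count was worth 0.0321 to 0.0475 CPM before scaling.

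The 10 genes, the 13 other lists (with 2 of 238 list entries not matched to the table) and the tests were chosen with earlier results of these data known. From each list and line the text names up to 3 called genes with the largest change and at least 1 CPM, or the most abundant where fewer than 2 were called, and 1 gene so chosen is not reported here. Shared transcript windows and antisense overlaps were taken from GENCODE's annotation. Motifs were searched in RefSeq promoters of GRCh38.p14, and IL1RN was left out because its nearest entry starts 10757 bases from the gene start in the files.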

Additional observations from a re-analysis of the deposited data

Results flagged for a closer look

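The effect of dG differed between U937 and KG1A by a test of the difference itself for 5 of the 6 genes read in both lines. The U937 effect minus the KG1A effect, on the log2 scale by edgeR's quasi-likelihood test, was 2.14 for CXCL2, 1.78 for IL1B, 1.72 for CXCL8 and 1.16 for IL1RN. For CCL5 it was -1.13, from 0.89 ± 0.04 in U937 and 2.01 ± 0.26 in KG1A, on 111 KG1A dG counts and 27 KG1A PBS counts. Each group held 2 libraries, too few for a search for libraries far from their group.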

How the results depend on the processing

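Across 18 alternatives, the number of the 10 genes called in U937 stayed at 7 or 8 and in KG1A between 2 and 4. Of 523 recomputed values of single genes, 500 kept the outcome of the test, 13 lost the call, 8 gained it and 2 lost it with a change of sign. Those 2 were the CCL5 difference between lines, 0.13 on log2(RPKM + 1) with and without the filter, and the cause was not tested. TNF values that were never called also crossed 0. The TNF log2 fold change in KG1A ran from -0.44 to 0.44, and the TNF difference between lines from -0.06 to 0.82. Of the U937 calls only that of TNF was ever lost, and of the KG1A calls only that of CXCL2. With the replicate number as a block, 11529 genes were called in U937 and 8742 in KG1A, against 11712 in U937 and 8994 in KG1A without it, and the block changed no call of the 10 genes. Same-numbered libraries did not vary together (correlation of deviations -0.0057 in U937 and -0.042 in KG1A), so the numbers were not taken as pairs. Above 8 CPM the KG1A correlation was -0.19, and a crossed block in KG1A, chosen after seeing the data, called 9181 genes there. Higher calls were 60.2% of the KG1A calls (5413 higher, 3581 lower), but 49.3% on log2(RPKM + 1) (4085 higher, 4202 lower) and 50% on log2(RPKM + 0.1). Depth limits CCL4 in U937 and CXCL8, IL1RN and TNF in KG1A, each with fewer than 45 counts per group.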
